A study of Canis lupus familiaris with 45 samples.

Results

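The collagen genes were followed in subcutaneous fat of beagles that either ate freely or were fed to hold their weight. A gene was a member when a probe set of the canine array carried a single platform symbol of the form COL, number, A, number. That rule gave 36 genes with 97 probe sets, of 15115 genes and 42924 probe sets in all, and each gene was read at its brightest probe set, by the mean of all 45 arrays. The 9 dogs were intact female beagles aged 4 years, randomized to free feeding (ad libitum, dogs 2, 5, 6, 7 and 8) or to feeding that kept the baseline weight (control, dogs 1, 3, 4 and 9). All ate Purina Pro Plan Performance Formula, and fat was taken after an overnight fast. Each dog gave 1 array at week 0, before free feeding began, and at weeks 4, 8, 12 and 24, so each week holds 4 control and 5 ad libitum arrays. Values are log2 expression values, on which a difference of 1 is a 2-fold change, and a level below 4 was taken as not above background.

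Collagens are the main structural proteins of the extracellular matrix, and each is built of chains wound into a triple helix. Fibrillar collagens, such as types I, III and V, form the load-bearing fibres of the stroma and are made mainly by fibroblasts and their progenitors. Type IV collagen forms the sheet-like network of basement membranes, which in fat surround each adipocyte and each capillary. Other collagens include type VI, which forms beaded filaments around cells, and fibre-associated types such as XII, XIV and XVI. Type XV lies where basement membranes meet the fibres, and type XXIII spans the cell membrane. Fat cells that enlarge do so inside this matrix.

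Of the 36 collagen genes, 18 reached a mean of at least 4 in this tissue: 7 of 10 fibrillar, 3 of 6 basement membrane and 8 of 20 other collagens. The fibrillar ones were COL1A1, COL1A2, COL3A1, COL5A1, COL5A2, COL5A3 and COL27A1, and the basement membrane ones were COL4A1, COL4A2 and COL4A5. The others were COL6A1, COL6A3, COL10A1, COL12A1, COL14A1, COL15A1, COL16A1 and COL23A1. Below 4 were the fibrillar COL2A1, COL11A2 and COL24A1, and the basement membrane chains COL4A3, COL4A4 and COL4A6. So were COL6A6, COL7A1 (the anchoring fibrils of skin), COL8A2, COL9A1, COL13A1, COL17A1, COL19A1, COL20A1, COL21A1, COL22A1, COL25A1 and COL26A1. Among these 18, 15 were never above 4 on any array, while COL4A6 was on 4 arrays, COL21A1 on 2 and COL6A6 on 1. Levels of different genes are not set against each other, because each probe set has its own affinity.

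A value above 4 on at least 4 arrays was needed for testing, which 19 members met (the 18 above and COL4A6) and 17 did not. A member was called when limma's moderated test gave an adjusted p under 0.05, with Benjamini-Hochberg adjustment over all 22690 tested probe sets. Over 23 comparisons, 8 members, with COL23A1 among them, were called at least once and 11 in none. These counts carry no background share and are not read as a result about the collagens. The comparison of week 24 with weeks 4 to 12 alone called 50.7% of all named genes. The background given with the counts of a comparison is the share of the 9089 named genes tested that were called in that comparison.

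Some facts about the arrays touch the results. The mean of 12 adipocyte markers ran from 11.98 to 13.33 at week 0, from 11.48 to 13.59 at weeks 4 to 12 and from 11.31 to 13.72 at week 24, well above background on every array. Skeletal muscle transcripts (a mean above 7 over 21 muscle genes) were carried by 10 of the 45 arrays: 5 of 9 at week 0, 3 of 27 at weeks 4 to 12, and 2 of 9 at week 24, which were control dogs 3 and 4. All 9 week-24 arrays were in batch 6 of the labels' batches, so week 24 and that batch cannot be told apart. At week 4 the control arrays were in batches 1 and 2 and the ad libitum arrays in batches 3, 4 and 5. At week 8, the arrays of dog 5 and of dog 9 had been doubted in an earlier analysis of these data. COL10A1 in dog 5 was 5.17 at week 8 and between 6.45 and 7.06 at the other weeks, and both arrays were kept as labelled. In bulk tissue, fewer cells of a type and less RNA per cell cannot be told apart.

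**Figure D1:**
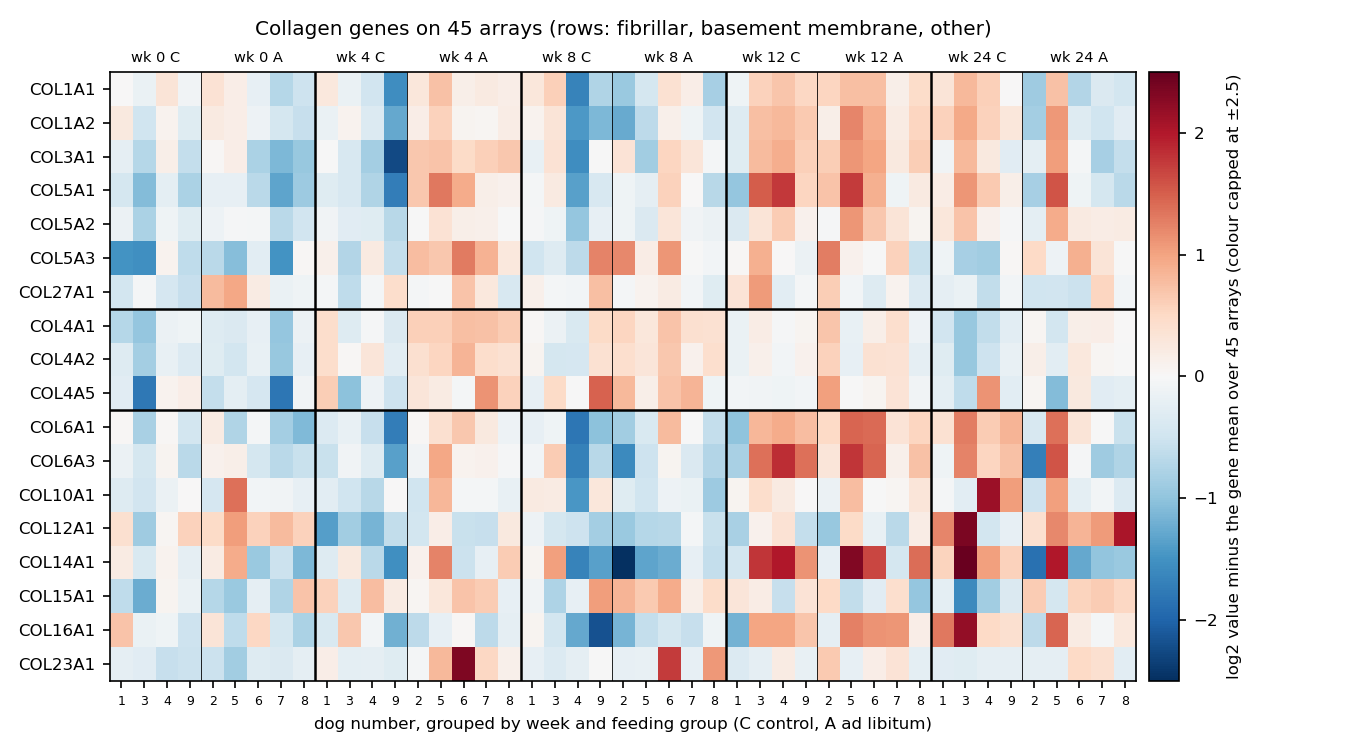
Each row is 1 of the 18 collagen genes with a mean of at least 4, and each column 1 of the 45 arrays, ordered by week, feeding group and dog number. Colour is the log2 value minus the gene's mean over the 45 arrays, capped at 2.5 either way. COL4A1 and COL4A2 lie below their means on all 9 week-0 arrays.

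The first comparison asked how the collagens moved during the trial whichever the diet, and it was added after the data had been seen. COL4A1 and COL4A2, the most widely used chains of type IV collagen, were the members with the smallest p, and both rose. From week 0 to the mean of weeks 4 to 12, COL4A1 rose by 0.64 (SE 0.10, 1.56-fold, adjusted p = 5.74e-04, 9 of 9 dogs). COL4A2, its partner in the type IV trimer, rose by 0.62 (SE 0.10, 1.54-fold, adjusted p = 6.92e-04, 9 of 9 dogs). In all, 7 of 19 members were called, 6 higher and 1 lower, against a background of 7.36%, and the median member changed by 0.40 against 0.05 over all named genes.

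COL5A3, a chain of the fibrillar type V collagen, rose by 1.02 (SE 0.18, 2.03-fold, adjusted p = 0.00115) in 7 of 9 dogs. COL4A5, another type IV chain, rose by 0.71 (SE 0.22, adjusted p = 0.0399) in 8 of 9. COL15A1, the collagen of the basement membrane zone, rose by 0.62 (SE 0.20, adjusted p = 0.0489) in 7 of 9. The member that fell was COL12A1, which coats collagen fibres, by 0.91 (SE 0.23, adjusted p = 0.0167) in 8 of 9 dogs. COL23A1, the transmembrane collagen, was the other member called higher (adjusted p = 0.0164), but it was below 4 on every week-0 array and entered the test only through later arrays. Its rise from week 0 is therefore given no size and supports nothing here, and in control dog 3 its change was 0.0171.

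Of these 7 calls, those of COL15A1 and COL4A5 were lost most often under the alternatives tried. COL15A1 was called in 5 of 21 alternatives, with adjusted p from 0.00333 to 0.237, and COL4A5 in 9 of 20, with adjusted p from 0.0194 to 0.178. Both kept a value above 0 in all of them, and COL4A1, COL4A2 and COL5A3 were called in all 21.

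By class, 3 of 4 tested basement membrane members were called higher (median 0.63), as was 1 of 7 fibrillar members (median 0.30). Of 8 others 2 were called higher (1 of them COL23A1) and 1 lower (median 0.30). Called or not, 17 of all 19 members had a fitted change above 0, the 7 fibrillar ones among them. The main chains of the fibres did not pass. Type I collagen stood at 0.11 for COL1A1 (SE 0.20, adjusted p = 0.755) and 0.13 for COL1A2 (SE 0.21, adjusted p = 0.710). COL3A1, the single chain of type III, stood at 0.57 (SE 0.23, adjusted p = 0.104) and COL5A1 at 0.77 (SE 0.28, adjusted p = 0.0710). The type VI chains stood at 0.46 (COL6A1, adjusted p = 0.208) and 0.40 (COL6A3, adjusted p = 0.398).

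The values behind these shifts are given as the range over 9 arrays at week 0 and over 27 arrays at weeks 4 to 12. COL4A1 ran from 12.96 to 13.82 (median 13.61) at week 0 and from 13.55 to 14.68 (median 14.21) later. COL4A2 ran from 13.30 to 14.06 (median 13.92) and later from 13.81 to 15.10 (median 14.55). For both, the later median lies above every week-0 value although the ranges overlap. COL5A3 ran from 7.65 to 9.26 (median 8.49) and later from 8.45 to 10.48 (median 9.29), again with a later median above the highest week-0 value. COL4A5 ran from 3.20 to 5.18 (median 4.72) and later from 3.98 to 6.48 (median 5.08), and COL15A1 from 9.93 to 11.88 (median 10.54) and later from 10.21 to 12.21 (median 11.46). In these genes the week-0 range reaches past the later median. COL12A1 ran from 9.56 to 11.50 (median 11.03) and later from 9.07 to 10.94 (median 9.89), and at week 0 only control dog 3 lay below the later median. COL23A1, not above background on any of the 9 week-0 arrays, ran from 3.18 to 3.83 (median 3.69) and later from 3.72 to 6.39 (median 3.87). Most of its later values were thus still below 4, and the highest was that of ad libitum dog 6 at week 4.

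For other members the ranges overlapped widely. COL1A1 ran from 14.15 to 15.22 (median 14.78) at week 0 and from 13.20 to 15.61 (median 15.09) at weeks 4 to 12, and COL1A2 from 14.64 to 15.45 (median 15.08) and later from 13.77 to 16.42 (median 15.29). COL3A1 ran from 14.14 to 15.43 (median 14.68) and later from 13.02 to 16.38 (median 15.64). The later ranges of these 3 chains reached both above and below those of week 0. COL6A1 ran from 10.69 to 11.99 (median 11.32) and later from 9.98 to 13.25 (median 11.79), COL6A3 from 9.59 to 10.41 (median 9.81) and later from 8.58 to 12.10 (median 10.23), and COL16A1 from 7.99 to 9.49 (median 8.62) and later from 6.60 to 10.03 (median 8.56), with the same pattern.

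Within single dogs, COL4A1 changed by 0.00 to 1.48 (median 0.75), so that its smallest change, though counted as above 0, was no change at this precision. The same change was 0.12 to 1.25 (median 0.67) for COL4A2, -0.22 to 1.96 (median 1.38) for COL5A3 and -1.27 to 0.50 (median -1.07) for COL12A1. Batches 1 to 5 each held arrays of week 0 and of later weeks. In every one of these 5 batches the raw change was above 0 for COL4A1 (0.39 to 0.81), COL4A2 (0.35 to 0.80), COL5A3 (0.58 to 1.33) and COL4A5 (0.39 to 1.06), and below 0 for COL12A1 (-1.31 to -0.78). COL15A1 was below 0 in batch 4 alone (-0.39).

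Skeletal muscle markers moved the other way, with 7 of 21 lower (background 7.36%) and a median change of -3.85. Their mean level ran from 3.95 to 14.69 at week 0 and from 3.79 to 14.28 at weeks 4 to 12. Without the 10 arrays with muscle, the rise was 0.55 for COL4A1, 0.61 for COL4A2 and 0.85 for COL5A3, and COL12A1 stood at -1.11, all still called. COL4A5 (adjusted p = 0.122) and COL15A1 (adjusted p = 0.0581) were then not called. Of 12 adipocyte markers 1 was called higher (LEP, which encodes leptin, 2.08), with a median of -0.04, and of 10 endothelial markers none passed (median -0.08). The 3' minus 5' difference of actin, which grows as RNA degrades, was 1.43 to 4.29 (median 3.04) at week 0 and 1.35 to 3.45 (median 2.02) at weeks 4 to 12. With it as a covariate COL4A1 stood at 0.61 and COL4A2 at 0.60, both called, and 5 members were called in all, against 1.51% of named genes.

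COL4A1, COL4A2 and COL5A3 were called whichever of the 9 dogs was left out. Only these 3 were called without ad libitum dog 5 (0.99% of named genes called) or without ad libitum dog 7 (1.13%). Without control dog 3 or control dog 4 COL12A1 was called beside them, and without control dog 9 COL23A1 was.

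**Figure D2:**
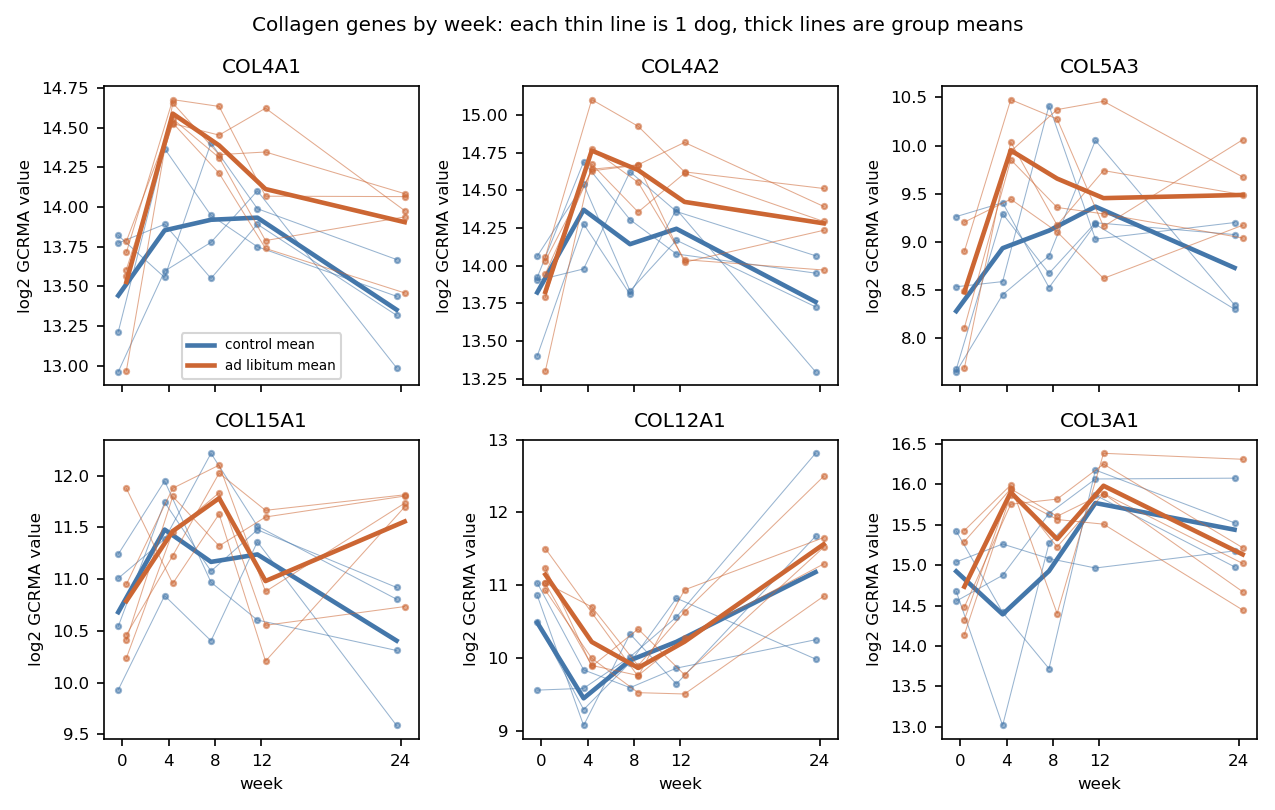
Log2 value against week for 6 collagen genes. Thin lines with points are single dogs, and thick lines are the means of 4 control dogs (blue) and 5 ad libitum dogs (orange). COL4A1, COL4A2 and COL5A3 stand higher at weeks 4 to 12 than at week 0, COL12A1 stands lower, and COL15A1 differs between the groups at week 24.

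At week 24 COL4A1 and COL4A2, but not the other type IV chains, were called lower. From the mean of weeks 4 to 12, COL4A1 fell by 0.53 (SE 0.10, adjusted p = 8.31e-05) and COL4A2 fell by 0.44 (SE 0.10, adjusted p = 4.80e-04), each in 9 of 9 dogs. Another probe set of COL4A1 stood at -0.66 (adjusted p = 7.14e-05), but a further one stood at -0.16 and was not called (adjusted p = 0.249). The other probe set of COL4A2 stood at -0.56 (adjusted p = 0.00188). COL4A5 stood at -0.37 (adjusted p = 0.139) and COL4A6 at 0.60 (adjusted p = 0.237). COL12A1 rose by 1.43 (SE 0.22, 2.70-fold, adjusted p = 8.31e-06) in 8 of 9 dogs, and COL16A1, another fibre-associated collagen, by 0.85 (SE 0.26, adjusted p = 0.00753) in 7 of 9. These 4 of 19 members stand against a background of 50.7% and lie below it as a share, and batch 6 cannot be told apart from week 24 here. This comparison was also added after the data had been seen.

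At week 24, over 9 arrays, COL4A1 was 12.99 to 14.08 (median 13.67) and COL4A2 13.29 to 14.51 (median 14.07), overlapping their week-0 ranges. COL12A1 was 9.98 to 12.81 (median 11.52), highest in control dog 3 and lowest in control dog 4, and COL16A1 was 8.12 to 10.97 (median 9.18). The actin difference was 2.37 to 5.86 (median 4.10) at week 24, larger than at weeks 4 to 12. With it as a covariate 1 of the 4 members was called, COL12A1. COL4A1 (adjusted p = 0.316), COL4A2 (adjusted p = 0.351) and COL16A1 were then not called. The share of named genes called under that setting is not given. Of 11 fibroblast markers 4 were called higher, a smaller share than the 50.7% of all named genes, with a median of 0.35, and their part in the collagen values was not tested.

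The change from week 0 was also read within each feeding group. In ad libitum dogs at week 4, 3 members were called, all higher, against a background of 0.594%. They were COL4A1 (0.92, SE 0.18, adjusted p = 0.00857) and COL4A2 (0.89, SE 0.17, adjusted p = 0.00918), each in 5 of 5 dogs, and COL23A1 (adjusted p = 0.0189), not above background at week 0 and given no size. At week 8, 5 were called against 6.84%. COL4A1 (0.79, adjusted p = 0.0116), COL4A2 (0.78, adjusted p = 0.0117), COL23A1 (adjusted p = 0.0421, with the same limit) and COL5A3 (0.96, adjusted p = 0.0453) were higher, and COL12A1 (-1.41, adjusted p = 0.0267) was lower. These counts changed when single dogs were left out. The week-4 count was 0 without ad libitum dog 2, 5 or 7 and 1 without dog 6. The week-8 count was 0 without ad libitum dog 2 or 5, 1 without dog 6, 2 without control dog 9, and 3 without ad libitum dog 7 or control dog 1, 3 or 4. The share of named genes called without each dog is not given, so the changes in count are not read as a result about the collagens.

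By limma, no member was called in ad libitum dogs at week 12 (background 0.858%) or week 24 (background 5.01%), where 14 and 4 of 19 had an unadjusted p under 0.05. So had 3073 and 4950 of the 22690 tested probe sets. At week 12 COL3A1 (1.31, adjusted p = 0.0894) and COL6A1 (1.38, adjusted p = 0.0896) had the smallest p above 0, and COL12A1 (-0.92) and COL27A1 (-0.41) below it. At week 24 these were COL5A3 (0.79, adjusted p = 0.0977), COL4A2 (0.40), COL27A1 (-0.63, adjusted p = 0.129) and COL10A1 (-0.25). Without ad libitum dog 8, 3 members were called at week 12, and 2 without control dog 3. The share of named genes called under those settings is not given, so these counts are not read as a result.

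In control dogs limma called no member at any week. The background was 0% at weeks 4, 8 and 12 and 7.45% at week 24, and 5, 3, 8 and 6 of 19 members had an unadjusted p under 0.05. Of the 22690 tested probe sets, 5470, 322, 4029 and 5578 had such a p. At week 4 the members with the smallest p were COL4A2 (0.64, adjusted p = 0.103) and COL5A3 (1.06, adjusted p = 0.109) above 0, and COL12A1 (-1.01, adjusted p = 0.157) and COL16A1 (-0.56) below it. At week 8 they were COL5A3 (0.84), COL4A1 (0.48), COL16A1 (-0.79) and COL12A1 (-0.66). At week 12 they were COL5A3 (1.28, adjusted p = 0.234), COL4A1 (0.52) and, as the only value below 0, COL12A1 (-0.41). At week 24 they were COL6A1 (1.16, adjusted p = 0.0898), COL16A1 (1.17), COL15A1 (-0.22) and COL4A1 (-0.08). Without control dog 1, 1 member was called at week 4, 5 at week 12 and 1 at week 24. These counts stand without the share of named genes called under the same setting and are not read as a result about the collagens.

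The effect of the diet was then read as ad libitum minus control at each week. At week 0, before free feeding, limma called no member (background 0%), and 1 of 19 had an unadjusted p under 0.05. So had 312 of the 22690 tested probe sets. COL27A1 (0.82, SE 0.27) and COL12A1 (0.62) had the smallest p above 0, and COL1A1 (-0.24) and COL16A1 (-0.32) below it, all with an adjusted p of 1.000.

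At week 4 no member was called by limma (background 0.0220%). Fitted differences above 0, higher in ad libitum dogs, were held by 16 of 19, with a median of 0.52 against -0.04 over all named genes. Of the 19 members 5 had an unadjusted p under 0.05, as had 2061 of the 22690 tested probe sets. COL3A1 was 15.94, 15.99, 15.75, 15.87 and 15.94 in ad libitum dogs 2, 5, 6, 7 and 8, and 15.26, 14.87, 14.42 and 13.02 in control dogs 1, 3, 4 and 9. All ad libitum dogs lay above all controls, and control dog 9 was far below the rest. The fitted difference was 1.29 (SE 0.46, 2.44-fold, adjusted p = 0.391).

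In the same order of dogs, COL4A1 was 14.53, 14.53, 14.68, 14.66 and 14.55 against 14.37, 13.60, 13.89 and 13.56, again without overlap (0.51, SE 0.20, adjusted p = 0.478). COL4A2 was 14.64, 14.77, 15.10, 14.67 and 14.63 against 14.69, 14.28, 14.54 and 13.98, where control dog 1 reached the ad libitum range (0.33, SE 0.20, adjusted p = 0.580). COL1A1 was 15.15, 15.60, 15.02, 15.09 and 15.02 against 15.12, 14.70, 14.39 and 13.31 (0.52, SE 0.40, adjusted p = 0.632). COL1A1 overlapped between the groups through control dog 1, and COL1A2 through control dog 3. COL1A2 was 15.39, 15.79, 15.28, 15.26 and 15.40 against 15.04, 15.29, 14.88 and 13.92 (0.63, SE 0.42, adjusted p = 0.596).

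Of the type VI chains, COL6A1 was 11.82, 12.19, 12.46, 12.04 and 11.66 against 11.44, 11.61, 11.22 and 10.05, without overlap (1.08, SE 0.48, adjusted p = 0.515). COL6A3 was 10.18, 11.23, 10.36, 10.37 and 10.23 against 9.70, 10.18, 9.94 and 8.91, where the groups met (0.77, SE 0.61, adjusted p = 0.638). Control dog 9 was the lowest control in all 7 of these genes. COL23A1 had the smallest p of the members (adjusted p = 0.247), at 3.99, 4.86, 6.39, 4.57 and 4.17 against 4.21, 3.81, 3.83 and 3.75. It entered the test mostly through ad libitum arrays, so its difference is given no size and supports nothing here. Below 0 the smallest p belonged to COL15A1 (-0.19) and COL10A1 (-0.18).

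Some measures of the arrays differed between the groups at week 4 as well. The actin difference was 1.40 to 2.04 in ad libitum and 2.76 to 3.39 in control dogs, without overlap, and the batches were not shared. Without a batch term 2 members were called, COL3A1 (1.51, adjusted p = 0.0399) and COL4A1 (0.74, adjusted p = 0.0495), against 1.83% of named genes. With actin as a covariate COL3A1 stood at 1.29 and COL4A1 at 0.50. Fibroblast markers were not called (8 of 11 above 0, median 0.34), nor were adipocyte markers (2 of 12 above 0, median -0.28). The muscle mean ran from 4.09 to 4.71 in ad libitum and from 4.34 to 4.54 in control dogs. Their part in the collagen values was not tested.

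Weeks 8 and 12 gave no call by limma either. At week 8 (background 1.60%) 3 members had an unadjusted p under 0.05: COL4A2 (0.50, SE 0.17, adjusted p = 0.0850) and COL4A1 (0.48, SE 0.17, adjusted p = 0.0984), each higher in 5 of 5 ad libitum dogs, and COL23A1 (0.73, adjusted p = 0.0983). Of the 22690 tested probe sets, 5669 had an unadjusted p under 0.05, a larger share than among the members. COL14A1 (-0.76) and COL10A1 (-0.28) led the values below 0, and without ad libitum dog 7 there was 1 call. At week 12 (background 0.0110%) 0 members had an unadjusted p under 0.05, against 2510 of the 22690 tested probe sets. The leading values were COL4A5 (0.48), COL4A1 (0.21), COL27A1 (-0.33) and COL15A1 (-0.40).

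Averaged over weeks 4, 8 and 12, a comparison added after the data had been seen, COL4A1 alone was called, higher in ad libitum dogs by 0.40 (SE 0.10, 1.32-fold, adjusted p = 0.0453, 5 of 5 ad libitum dogs above the control mean, background 1.42%). Over those weeks it ran from 13.74 to 14.68 (median 14.45, 15 arrays) in ad libitum dogs and from 13.55 to 14.40 (median 13.89, 12 arrays) in controls, so the ranges overlap. COL4A2 stood at 0.33 (adjusted p = 0.110) and COL3A1 at 0.68 (adjusted p = 0.160). COL23A1 was not called (adjusted p = 0.0608) and is given no size, as it entered the test mostly through ad libitum arrays. At its brightest probe set COL4A1 was not called without any 1 of control dogs 1, 3, 4 and 9 or ad libitum dogs 6, 7 and 8. Nor was it called without the muscle arrays or with actin as a covariate.

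Within batches 1 to 5 the raw difference of COL4A1 over weeks 4 to 12 was 0.57, -0.01, 0.58, 0.39 and 0.24, and that of COL4A2 was above 0 in all 5 (0.09 to 0.47). The fibre chains did not keep 1 sign. COL1A1 differed by 1.15, 0.65 and 1.11 in batches 1, 2 and 5, and by -0.41 and -0.30 in batches 3 and 4. COL6A1 split the same way (1.64, 1.47 and 1.68, then -0.15 and -0.16), as did COL14A1, which decorates collagen fibres (1.41, 1.62 and 0.71, then -1.05 and -1.13). COL3A1 ran from -0.04 to 1.83.

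At week 24 COL15A1 was the only collagen called. It was 11.81, 10.73, 11.73, 11.80 and 11.70 in ad libitum dogs 2, 5, 6, 7 and 8, and 10.92, 9.59, 10.31 and 10.81 in control dogs 1, 3, 4 and 9. The groups overlap only through ad libitum dog 5, and the lowest control is dog 3, whose array carried muscle. The difference was 1.15 (SE 0.33, 2.22-fold, adjusted p = 0.0365), with 5 of 5 ad libitum dogs above the control mean. As 1 of 19 members it is near the background share of 5.33%, so the count is not read as a result about the collagens. In all, 8 members had an unadjusted p under 0.05, as had 5155 of the 22690 tested probe sets.

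COL4A1 was 13.98, 13.46, 14.07, 14.08 and 13.94 against 13.44, 12.99, 13.32 and 13.67 (0.55, SE 0.17, adjusted p = 0.0535). COL4A2 was 14.39, 13.97, 14.51, 14.29 and 14.23 against 13.95, 13.29, 13.73 and 14.07 (0.52, SE 0.17, adjusted p = 0.0632). In both, dog 5 was the lowest ad libitum dog and fell within the control range. COL5A3 stood at 0.76 (SE 0.30, adjusted p = 0.121).

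Fitted values of type I collagen and COL14A1 were below 0 without passing. COL14A1 was 8.35, 12.23, 8.94, 9.24 and 9.30 against 10.78, 12.68, 11.24 and 10.79 (-1.76, SE 0.67, adjusted p = 0.111). COL1A1 was 13.98, 15.59, 14.13, 14.50 and 14.41 against 15.19, 15.67, 15.46 and 14.87 (-0.78, SE 0.34, adjusted p = 0.162), and COL1A2 was 14.36, 16.29, 14.89, 14.71 and 14.93 against 15.79, 16.16, 15.79 and 15.49 (-0.77, SE 0.36, adjusted p = 0.191). In these 3 genes 4 of the 5 ad libitum dogs lay below every control, and dog 5 lay within or above the controls. COL6A3 was 8.55, 11.84, 10.22, 9.38 and 9.50 against 10.15, 11.51, 10.80 and 10.99 (-0.96, SE 0.52, adjusted p = 0.264), with dog 5 above every control. COL6A1 differed by -0.64 (adjusted p = 0.359) and COL3A1 by -0.31 (adjusted p = 0.681).

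The count at this week changed most without ad libitum dog 5. Then 8 of 19 members were called, against 13.5% of named genes under the same setting. Higher were COL15A1 (1.36, adjusted p = 0.0112), COL4A1 (0.66, adjusted p = 0.0173) and COL4A2 (0.60, adjusted p = 0.0309). Lower were COL14A1 (-2.42, adjusted p = 0.00740), COL1A2 (-1.09, adjusted p = 0.0313), COL1A1 (-1.04, adjusted p = 0.0334), COL6A3 (-1.45, adjusted p = 0.0340) and COL10A1 (-1.01, adjusted p = 0.0421). Without ad libitum dog 2, 6 or 7 or control dog 3 or 4, 0 members were called. The shares of named genes called were then 0.924%, 2.29%, 2.1%, 2.71% and 1.8%. Without control dog 9, COL15A1 and COL4A1 were called, against 3.85%. All of these shares lie below the 5.33% of the main fit, so the lost calls are not read as a result about the collagens. COL15A1 was not called without the muscle arrays (0.74, adjusted p = 0.309) or with actin as a covariate (0.82, adjusted p = 0.440). Of named genes 0.198% and 0.11% were called in these 2 settings.

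Markers of cell types moved beside these values. Of 12 adipocyte markers 3 were called higher in ad libitum dogs at week 24 (background 5.33%), namely LIPE, the hormone-sensitive lipase (1.77), LEP (2.70) and AQP7, a glycerol channel (2.10). All 12 were above 0, and the median was 0.68. Their mean level ran from 11.53 to 13.72 in ad libitum and from 11.31 to 12.65 in control dogs. Of 11 tested fibroblast markers none was called by limma, 1 was above 0 and the median was -0.71, with a mean level from 10.14 to 11.85 against 11.65 to 12.31. Dog 5 had the lowest adipocyte mean of the ad libitum dogs (11.53, the next 13.37) and the highest fibroblast mean (11.85, the next 11.26). Of 21 muscle markers none was called by limma, none was above 0 and the median was -2.56. The actin difference was 2.37 to 4.47 in ad libitum and 3.18 to 5.86 in control dogs. The part of adipocyte and fibroblast content in the collagen values was not tested.

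**Figure D3:**
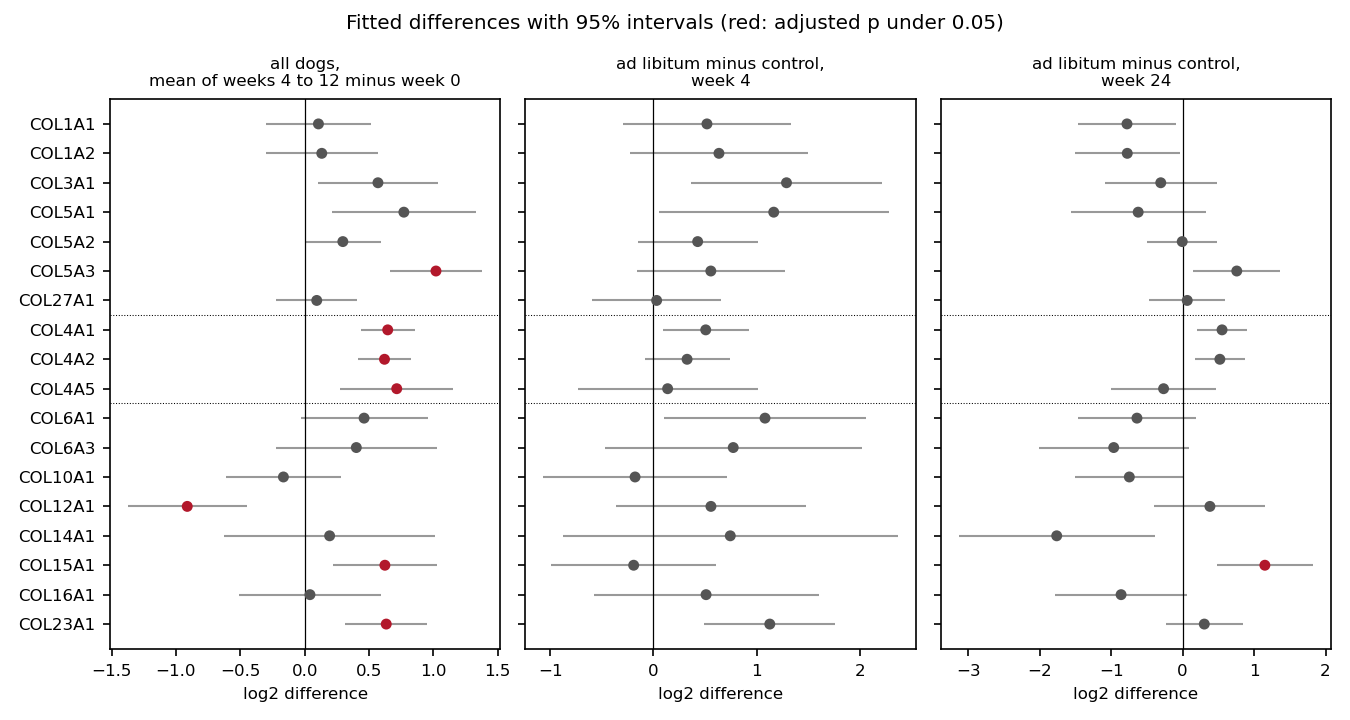
Fitted log2 differences (points) with 95% confidence intervals (lines) for the 18 collagen genes above background, in the change over all dogs, at week 4 and at week 24. Red points have an adjusted p under 0.05, and dotted lines separate fibrillar, basement membrane and other collagens. COL23A1 was not above background at week 0 and entered the test mostly through ad libitum arrays, so its points support nothing. COL4A1 and COL4A2 are above 0 in all 3 panels, while COL14A1, COL1A1 and COL1A2 are above 0 at week 4 and below it at week 24 without passing.

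The difference between those weeks was itself tested, as ad libitum minus control at week 24 minus the same at week 4, again added after the data had been seen. By limma none of the 19 members was called (background 0.0110%), and 8 had an unadjusted p under 0.05. So had 3102 of the 22690 tested probe sets. COL6A1 (-1.72, SE 0.63, adjusted p = 0.248) and COL3A1 (-1.59, SE 0.60, adjusted p = 0.258) had the smallest p below 0, and COL15A1 (1.34, SE 0.51, adjusted p = 0.263) and COL4A2 (0.20, SE 0.26, adjusted p = 0.748) above it. COL4A1 stood at 0.05, with a 95% interval from -0.50 to 0.59. The members had a median of -0.82, against 0.05 over all named genes.

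Class means over the genes above background are given without a test. They are raw means without a batch term, unlike the fitted differences above, and at week 4 the groups shared no batch. They are therefore not set against the fitted values. The fibrillar mean at week 4 was 12.41 ± 0.19 (SD, n = 5) with free feeding and 11.54 ± 0.45 (SD, n = 4) in the controls, a difference of 0.86 with 5 of 5 ad libitum dogs above the control mean. At week 24 it was 11.95 ± 0.43 (SD, n = 5) and 12.19 ± 0.21 (SD, n = 4), a difference of -0.24 with 1 of 5 above. The basement membrane class differed by -0.03 at week 0 and by 0.61, 0.34, 0.24 and 0.27 at weeks 4, 8, 12 and 24. The other collagens differed by 0.56 at week 4 and by -0.39 at week 24. Fibrillar minus basement membrane, formed on each array, differed between the groups by 0.25 at week 4 and by -0.51 at week 24, each smaller than the pooled SD (0.30 and 0.65).

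**Figure D4:**
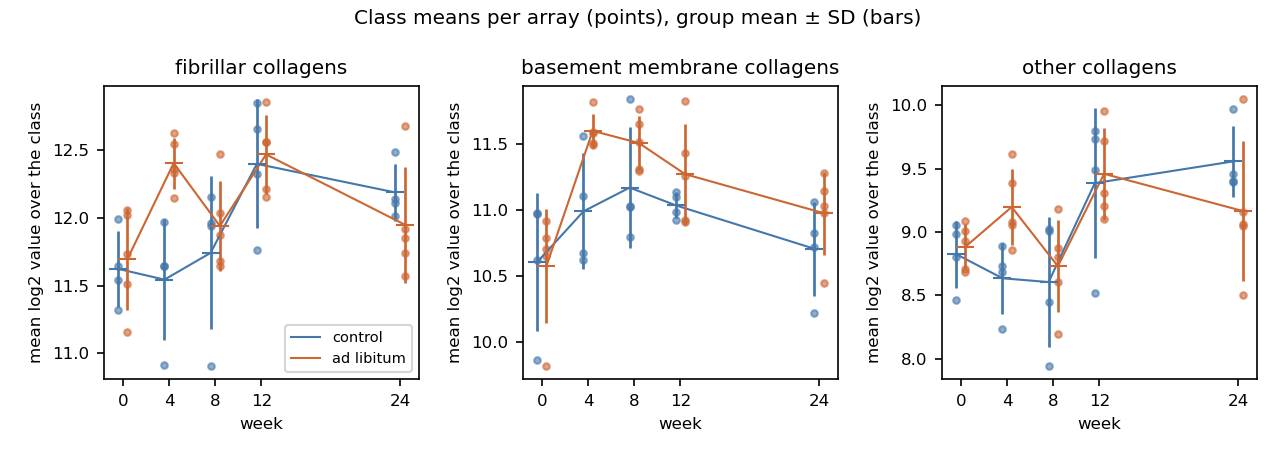
Mean log2 value over the 7 fibrillar, 3 basement membrane and 8 other collagen genes above background, by week and without a batch term. Points are arrays, bars the group mean ± SD and lines join the means, blue for control (n = 4) and orange for ad libitum (n = 5). At week 4 all 5 ad libitum arrays lie above the control mean in each class.

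The feeding effect, which subtracts the controls' change since week 0 from that of the freely fed dogs, gave no call by limma at weeks 4, 8, 12 or 24 or as their average. The background was 0% in each, and 2, 1, 1, 1 and 1 members had an unadjusted p under 0.05. Of the 22690 tested probe sets, 1773, 1966, 1213, 2316 and 959 had such a p. At week 4 the members with the smallest p were COL3A1 (1.46, SE 0.61, adjusted p = 0.606), COL23A1 (adjusted p = 0.624), COL27A1 (-0.79) and COL15A1 (-0.50). At week 8 they were COL4A2 (0.43), COL23A1 (adjusted p = 0.637), COL27A1 (-1.01) and COL12A1 (-0.75). At week 12 they were COL1A1 (0.58), COL4A5 (0.54), COL27A1 (-1.15) and COL15A1 (-0.71), and at week 24 COL4A2 (0.45), COL15A1 (0.85), COL10A1 (-1.10) and COL27A1 (-0.75). For the average they were COL4A2 (0.30), COL3A1 (0.60), COL27A1 (-0.93, SE 0.30) and COL10A1 (-0.58), all with an adjusted p of 1.000. The joint F test of the 4 weekly effects called no member (background 0.0110%). In it 2 members had an unadjusted p under 0.05, as had 5298 of the 22690 tested probe sets. The smallest adjusted p values of the members were 0.166 for COL15A1 and 0.212 for COL27A1.

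COL27A1, a fibrillar collagen near background, had the smallest p below 0 in the feeding effect of weeks 4, 8 and 12, and it also had the smallest p of the members at week 0. It was 5.34, 5.51, 4.76, 4.39 and 4.45 in ad libitum and 4.10, 4.51, 4.13 and 3.99 in control dogs at week 0, where only ad libitum dogs 7 and 8 reached the control range. Its other tested probe sets did not follow it over the arrays (r of -0.09 and 0.35).

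Over the 45 arrays the genes above background were most alike in sets that crossed the classes. With COL1A1 went COL1A2 (Pearson r 0.93), COL6A3 (0.85), COL14A1 (0.83), COL6A1 (0.82), COL3A1 (0.81), COL5A1 (0.81), COL5A2 (0.71) and COL16A1 (0.62). With COL4A1 went COL4A2 (0.94), COL5A3 (0.86), COL15A1 (0.75), COL4A5 (0.71) and COL23A1 (0.63). COL5A3 is fibrillar by class but had an r of 0.04 with COL1A1, whereas COL5A1 and COL5A2, the other chains of type V, had 0.25 and 0.18 with COL4A1. COL1A1 and COL4A1 had an r of 0.06 with each other. These values are a description, since the 45 arrays share 9 dogs, 5 weeks and 6 batches.

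With the mean of each feeding group and week taken out, the 8 genes named with COL1A1 had an r from 0.57 to 0.90 with it, and COL4A2, COL5A3, COL15A1 and COL4A5 one from 0.74 to 0.88 with COL4A1, while COL23A1 dropped to 0.30. On the 35 arrays without muscle the ranges were 0.57 to 0.92 and 0.62 to 0.91. The mean of the fibroblast markers had an r of 0.91 with COL1A2, 0.90 with COL14A1, 0.80 with COL1A1 and -0.31 with COL4A1. The mean of the adipocyte markers had an r of 0.85 with COL15A1, 0.61 with COL4A1, -0.55 with COL1A1 and -0.80 with COL14A1. The actin difference had an r of -0.58 with COL4A1 and 0.04 with COL1A1.

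**Figure D5:**
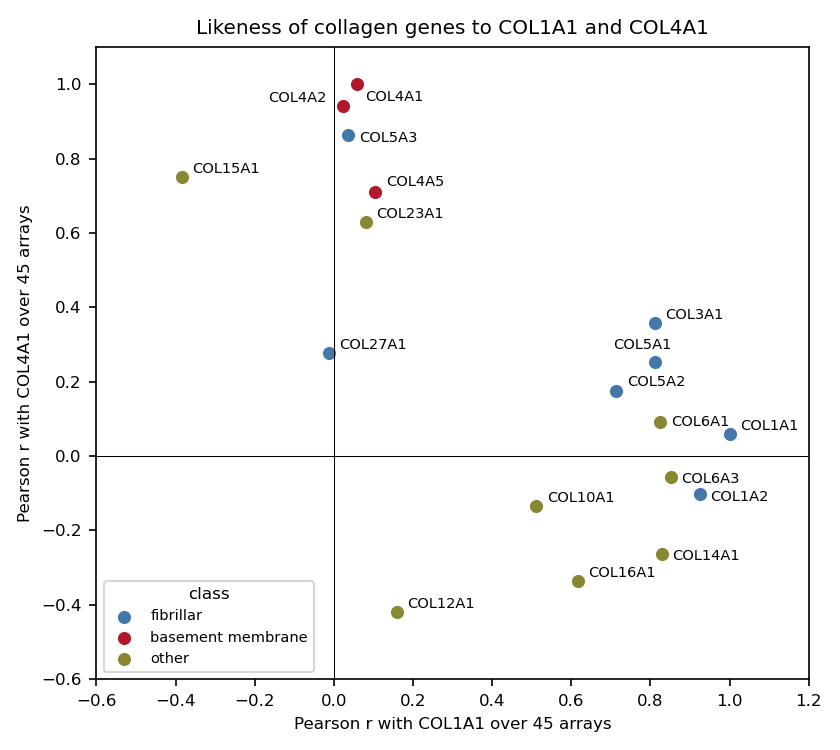
Pearson r with COL1A1 (horizontal) and with COL4A1 (vertical) over the 45 arrays for the 18 collagen genes above background, coloured by class. COL4A2, COL5A3, COL15A1, COL4A5 and COL23A1 have an r above 0.6 with COL4A1, and the type I, III and VI chains with COL5A1, COL5A2, COL14A1 and COL16A1 have one above 0.6 with COL1A1.

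Among genes that are no collagens, the 5 probe sets most like COL1A1 belonged to SFRP4, a secreted Wnt modulator (r of 0.91, 0.85 and 0.84), to CCNI (0.88) and to CCDC80 (0.86). Those most like COL4A1 belonged to LOC479912 (0.89 and 0.88), to PTH1R, a parathyroid hormone receptor (0.89), to LCAT, which esterifies cholesterol in lipoproteins (0.88), and to PGD, an enzyme of the pentose phosphate pathway (0.86).

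Of the 97 collagen probe sets 48 were tested, and those of 1 gene were compared. The 3 of COL4A1 and the 2 of COL4A2 were all called in the change over all dogs, at 0.64, 0.88 and 0.79, and at 0.62 and 0.90. Other genes were less even in that change. The other tested probe set of COL12A1 was not called (-0.64, adjusted p = 0.0852), and of the 4 of COL15A1, 2 were not (0.57, adjusted p = 0.135, and 0.24, adjusted p = 0.0906). At week 24 the other probe sets of COL4A1 passed (0.71, adjusted p = 0.0401, and 0.96, adjusted p = 0.00566), as did that of COL4A2 (0.82, adjusted p = 0.0464), though the brightest ones did not. In the feeding difference over weeks 4 to 12 those of COL4A1 stood at 0.60 (adjusted p = 0.00857) and 0.73 (adjusted p = 0.00121). That of COL4A2 stood at 0.50 and did not pass (adjusted p = 0.0931). All 4 of COL15A1 were above 0 at week 24 and 2 passed (1.15 and 1.71). All 7 of COL14A1 were below 0 (-2.24 to -0.39) and none passed. COL12A1 differed between its probe sets at week 24, where the brightest gave 0.38 and the other 1.35 (adjusted p = 0.0443). The less bright probe sets of COL1A1 gave -1.81 and -1.91 at week 24, against -0.78 for the brightest, and none passed.

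The genes that fold, cross-link and anchor collagen were read from lists. Of all named genes 7.36% were called in the change over all dogs, 1.42% in the feeding difference over weeks 4 to 12 and 5.33% in that of week 24, and the list counts stand against these shares. Of 17 tested genes of folding, modification and cross-linking, 5 were called higher over all dogs at weeks 4 to 12 and none lower (median 0.31). They were SERPINH1, the collagen chaperone (0.97), the prolyl hydroxylase P3H1 (0.58), the lysyl hydroxylase PLOD3 (0.50), P4HB, a subunit of prolyl 4-hydroxylase (0.30), and LOX, which cross-links collagen (2.13, adjusted p = 0.0122). LOX was also higher in ad libitum than in control dogs, by 2.31 over weeks 4 to 12 (adjusted p = 0.0119) and by 3.59 at week 24 (adjusted p = 0.0109), as 1 of 17 in each, which at week 24 is near the background share. Of 10 tested basement membrane partners 2 were called higher over all dogs, the nidogens NID1 (0.83, adjusted p = 0.00273) and NID2 (1.03, adjusted p = 0.0185), which link laminin to type IV collagen. Both were higher in ad libitum dogs over weeks 4 to 12 (0.71 and 1.28), and NID2 was at week 24 (1.67, adjusted p = 0.0223). Of 4 tested genes of procollagen cleavage ADAMTS2, which trims the amino-terminal propeptide, rose over all dogs (1.15, adjusted p = 0.00302). Of 8 collagen receptors the integrin chain ITGA1 fell (-1.19, adjusted p = 0.0360), and of 6 profibrotic signals none was called by limma (4 above 0, median 0.12).

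A few members carried signal on single arrays. COL4A6, a basement membrane chain of epithelia and smooth muscle, was 9.62 on the week-24 array of control dog 4 and at most 4.53 on any other. That array also held the epithelial keratins KRT8 (9.53) and KRT18 (11.33), and its COL10A1 value, 7.83, was the highest of the 45. The week-24 difference of COL4A6 (-1.87, adjusted p = 0.112) was -0.21 without that array. COL21A1 was highest at 4.35 in ad libitum dog 5 and COL6A6 at 4.26 in control dog 3, both at week 24. The mean of 6 cartilage markers ran from 2.59 to 3.77 and that of 6 epidermal markers from 3.09 to 4.71 at week 24. COL2A1 and COL9A1, which cartilage uses, and COL7A1 and COL17A1, which anchor epidermis, were below 4 on every array.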

How the data were processed

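RNA of subcutaneous fat was measured on 45 Affymetrix canine arrays. The log2 values are those deposited by the authors, made with GCRMA per the submitters' processing notes, with no version given. GCRMA brings all arrays to a common distribution, so a change in total RNA is not seen. The label of each array gave group, week, dog and batch. The 111 array controls were left out, as were probe sets without a value above 4 on at least 4 arrays. limma 3.58.1 (R 4.3.3, statmod 1.5.0) fitted 10 means of feeding group and week with batches 1 to 5 as a term. The dog was a random block (correlation 0.00562, 31 residual degrees of freedom), since the same 9 dogs, numbered in the labels, gave all weeks. Genes were named from the platform table, and no sequence was used.

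Members, lists and tests were chosen with earlier results of these data known. Values are given for COL1A1, COL1A2, COL3A1, COL4A1, COL4A2, COL6A1, COL6A3 and every member called. Where none was called, the 2 with the smallest p of each sign are named. Alternatives changed the filter, batch term, block, normalization, variance model, probe sets, weeks and arrays, or left out each dog. The fit was tested on simulated data.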

Additional observations from a re-analysis of the deposited data

Results flagged for a closer look

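In 19 of 190 groups of 4 or 5 arrays (each tested collagen gene by feeding group and week), 1 array lay apart from the rest by Dixon's criterion. Chance alone gives this in about 1 in 20 independent groups. The genes share the same arrays and many move together, so the count is not read as an excess over that rate. Ad libitum dog 5 stood apart at week 24 in COL14A1 (12.23, the others at most 9.30), COL15A1 (10.73, the others at least 11.70), COL4A1 (13.46, the others at least 13.94) and COL10A1 (6.71, the others at most 5.61). The same dog was highest at week 4 in COL1A1 (15.60), COL1A2 (15.79) and COL6A3 (11.23), and at week 0 in COL10A1 (7.06). Control dog 1 was lowest of the controls at week 12 in COL6A1 (10.78, the others at least 12.56), COL1A2 (14.89) and COL16A1 (7.60). Control dog 4 was lowest at week 12 in COL15A1 (10.60) and at week 8 in COL10A1 (4.23) and COL4A6 (2.77), and highest at week 24 in COL4A6 (9.62, the others at most 3.31). Control dog 3 was highest at week 12 in COL5A3 (10.05). Ad libitum dog 7 was lowest at week 0 in COL4A1 (12.97). COL4A6 was also apart, below the level of 4, in ad libitum dog 6 at week 0 (3.76) and dog 2 at week 12 (3.22).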

How the results depend on the processing

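None of the called collagen values changed sign under the alternatives tried. Values that were not called did in places, as at week 4 COL10A1 (-0.18) to 0.38 and COL16A1 (0.51) to -0.10 without a batch term, and COL27A1 (0.03) to -0.17 without the muscle arrays. At week 4 (ad libitum minus control), 2 members were called without a batch term. At week 24, against 1 called, the count was 0 with no filter on low values, without a batch term, without the muscle arrays, with actin as covariate, with only the weeks compared in the fit, and without the week-24 array of control dog 4 (added after seeing the data). It was 3 with a trend and robust variance model or with the mean over the probe sets of a gene. In ad libitum dogs from week 0 to week 4, against 3, it was 1 without the muscle arrays and 0 with only the weeks compared. To week 8, against 5, it was 2 with no filter or without the doubted arrays of week 8, 3 with actin or with the dog as a fixed replicate block, and 0 with only the weeks compared. To weeks 12 and 24 it was 1 with the mean over probe sets. For week 24 against weeks 4 to 12 in all dogs, against 4, it was 1 with actin, 8 after quantile normalization and 7 with only the weeks compared. For the mean difference of weeks 4 to 12, against 1, it was 0 without the muscle arrays, with actin or with only the weeks compared. Counts in this paragraph stand without the share of named genes called under the same setting and are not read as results about the collagens. The causes were not tested.

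Leaving out each dog in turn gave 0 to 1 calls at week 8 (1 without ad libitum dog 7) and 0 to 8 at week 24. At week 24 the share of named genes called ran from 0.924% (without ad libitum dog 2) to 13.5% (without ad libitum dog 5). The ranges were 0 to 1 in control dogs at week 4, 0 to 5 at week 12 and 0 to 1 at week 24, each highest without control dog 1. In ad libitum dogs they were 0 to 4 at week 4, 0 to 6 at week 8 and 0 to 3 at week 12. Over all dogs 3 to 7 were called for weeks 4 to 12 against week 0. There the share of named genes called ran from 0.902% (without control dog 9) to 30.3% (without ad libitum dog 8). For the mean difference of weeks 4 to 12 the range was 0 to 1. Ranges without such a share are not read as results about the collagens. Without the replicate block 6 members were called in weeks 4 to 12 against week 0, where the main fit called 7, and the fixed replicate block gave 7. The number of arrays limits the precision.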
